A study of Homo sapiens with 4 samples.

Results

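Expression of 39 genes of glycolysis and the hypoxia response was examined in a human lung squamous cell carcinoma line at doses of 30 Gy and 0 Gy, the gray being the unit of absorbed dose. The genes were taken by name from the 58735 genes of the deposited table, and all 39 were found. They comprise 23 genes of glycolysis and lactate handling and 16 genes of the hypoxia-inducible factor (HIF) pathway. The 30 Gy group and the 0 Gy group hold 2 libraries each, told apart by the dose in their library names. The design text names SK-MES-1, an established lung squamous carcinoma line, and its radiotherapy-resistant derivative SK-MES-1-RR, without saying which libraries came from which. Whether the 30 Gy were fractionated, and how long before RNA extraction they were given, is not stated. The labels do not tie the replicates to separate cultures. The spread behind each p-value is that between these libraries and may be technical.

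Glycolysis splits glucose into pyruvate in a chain of cytosolic enzymes and yields ATP without oxygen. Pyruvate is then either burned in mitochondria or reduced to lactate, which leaves the cell through monocarboxylate transporters, and many tumours keep the second route active even with oxygen present. HIF is a dimer of an oxygen-sensitive alpha subunit and a stable beta subunit. With oxygen, EGLN prolyl hydroxylases mark the alpha subunit for VHL, which leads to its degradation, and without oxygen the dimer binds DNA and raises genes of glucose use, pH control and vessel growth.

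The recovered depth was 15920861 to 15979341 reads in the 30 Gy libraries and 16773381 to 17261121 reads in the 0 Gy libraries. Values are FPKM (fragments per kilobase at a common library depth), so levels of different genes are compared per length. That length counts all annotated exon bases of a gene, so ranks and shares between genes depend on it. Of the squamous markers, TP63 stood at 3.19 to 3.34 FPKM at 30 Gy and 3.95 to 4.14 FPKM at 0 Gy, while KRT5, DSG3 and KRT6A, the gene named in the study's title, had 0 reads in all 4 libraries. The general epithelial keratins KRT7, KRT8, KRT18 and KRT19 were present at 35.7 FPKM or more in each library, EPCAM stood at 3.42 to 5.91 FPKM, and CDH1 had 0 reads at 30 Gy and 2 and 7 reads at 0 Gy. Between the doses KRT7 stood at 221.0 and 200.9 FPKM at 30 Gy, against 96.2 and 95.3 FPKM at 0 Gy, and KRT19 at 92.8 and 84.1 FPKM at 30 Gy, against 165.2 and 159.2 FPKM at 0 Gy. Of the fibroblast markers COL1A1 was present at 62.1 FPKM or more in each library, COL1A2 had at most 1 read and DCN had 0 reads in all 4. PDGFRB had 166 and 171 reads at 30 Gy, against 81 and 87 at 0 Gy, and LUM 43 and 63, against 1 and 5. The list of 5 summed to 72.4 to 78.6 FPKM at 30 Gy and 62.8 to 63.2 FPKM at 0 Gy, nearly all of it COL1A1. The part of these markers in the results was not tested. The leukocyte markers and the endothelial markers summed to at most 0.160 FPKM and 0.0972 FPKM in any library.

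Both gene groups leaned towards lower expression at 30 Gy. The test was limma on log2(FPKM + 1) of every gene that reached 1 FPKM in 2 or more libraries, with a threshold of 0.05 on p-values adjusted over those 13379 genes. Of 22 tested glycolytic genes, 1 rose (TPI1) and 7 fell (HK2, PFKFB2, PGK1, ENO1, ENO2, LDHA and PDK1). Of 13 tested HIF pathway genes, 1 rose (ANGPTL4) and 5 fell (HIF1A, EPAS1, EGLN3, CA12 and ADM). Among all tested genes 19.8% were called in either direction, 10.8% rose and 9.06% fell, against 4.55% and 31.8% of the glycolytic genes and 7.69% and 38.5% of the HIF pathway genes. The median log2 change was -0.15 over the glycolytic genes and -0.24 over the HIF pathway genes, beside 0.00 over all tested genes. The remaining members ALDOC, EGLN2, CA9 and ANKRD37 lay under the filter. The share of all genes called depends on that filter. With a minimum of 5 FPKM instead, 1417 of 7734 genes rose and 1203 fell, larger shares than in the main test. There 1 glycolytic gene rose and 6 fell, and 1 HIF pathway gene rose and 5 fell.

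The doses were well separated for most members, as for most genes. In 31 of the 35 tested members the 30 Gy and 0 Gy values did not overlap, 7 higher and 24 lower at 30 Gy. Over all tested genes the values did not overlap for 65.2%, with 32.9% higher and 32.3% lower. PFKFB4, LDHB, SLC16A3 and ARNT were the tested members whose groups overlapped.

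HIF dimers bind the core letters ACGTG or GCGTG, and their presence in the promoters was counted because most called members fell together. RefSeq promoter windows on GRCh38.p14 (the 250 bases before each annotated start) were found for 34 of the 39 genes, with several starts for some, and not found for PFKFB2, SLC16A1, VHL, NDRG1 and VEGFA. At least 1 match on either strand was present in 12 of 15 windows of genes that fell (80%) and in 2 of 3 windows of genes that rose (66.7%). It was present in 17 of 39 windows of tested members that were not called (43.6%), in 55.8% of the windows of all tested genes and in 43.2% of all windows. CACGTG holds ACGTG on both strands and is also the E-box core of other factors. Windows of the same gene can overlap nearly in full, as for HK1 and PFKM, so windows are not independent units. Counted by gene, a match was present for 10 of 11 genes that fell (90.9%) and both genes that rose. It was present for 11 of 17 tested members that were not called (64.7%) and 65.8% of all tested genes with a window. A gene with several starts has more chances of a match in that count. A match is a run of letters and no measured binding.

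The gene that fell without a match was EGLN3. Windows are shown for 4 genes that fell and hold a match, LDHA, PGK1, ENO1 and ADM, for EGLN3, and for both genes that rose, TPI1 and ANGPTL4, so that their motif content can be compared. Each is printed 5′ to 3′ on the strand of its gene, with capitals for both core words and their reverse complements, and for a gene with several starts the window with most matches is given. A RefSeq start can lie inside the GENCODE span of its gene, as it does for all 7 windows shown. LDHA is the window at chr11:18394313-18394562 (plus strand), PGK1 at chrX:78103998-78104247 (plus), ENO1 at chr1:8878687-8878936 (minus), ADM at chr11:10304823-10305072 (plus), EGLN3 at chr14:33951075-33951324 (minus), TPI1 at chr12:6867855-6868104 (plus) and ANGPTL4 at chr19:8363905-8364154 (plus).
LDHA: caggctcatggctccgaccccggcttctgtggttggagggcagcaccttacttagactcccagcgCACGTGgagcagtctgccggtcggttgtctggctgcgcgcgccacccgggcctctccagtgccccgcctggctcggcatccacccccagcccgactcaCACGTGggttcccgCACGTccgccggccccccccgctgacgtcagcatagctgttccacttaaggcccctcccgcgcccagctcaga
PGK1: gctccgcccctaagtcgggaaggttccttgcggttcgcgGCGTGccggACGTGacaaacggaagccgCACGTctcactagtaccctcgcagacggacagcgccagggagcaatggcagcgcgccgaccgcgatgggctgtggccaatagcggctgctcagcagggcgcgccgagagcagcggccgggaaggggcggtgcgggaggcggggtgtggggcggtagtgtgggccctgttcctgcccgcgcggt
ENO1: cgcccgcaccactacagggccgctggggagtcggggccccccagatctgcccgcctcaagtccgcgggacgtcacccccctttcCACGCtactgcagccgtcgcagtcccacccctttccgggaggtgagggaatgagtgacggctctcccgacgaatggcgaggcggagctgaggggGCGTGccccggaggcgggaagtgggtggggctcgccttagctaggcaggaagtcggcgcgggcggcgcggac
ADM: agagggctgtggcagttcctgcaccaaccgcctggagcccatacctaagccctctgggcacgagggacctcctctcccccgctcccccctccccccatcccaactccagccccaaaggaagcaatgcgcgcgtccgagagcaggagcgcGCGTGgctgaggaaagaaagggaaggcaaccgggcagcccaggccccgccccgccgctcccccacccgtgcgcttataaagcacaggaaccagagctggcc
EGLN3: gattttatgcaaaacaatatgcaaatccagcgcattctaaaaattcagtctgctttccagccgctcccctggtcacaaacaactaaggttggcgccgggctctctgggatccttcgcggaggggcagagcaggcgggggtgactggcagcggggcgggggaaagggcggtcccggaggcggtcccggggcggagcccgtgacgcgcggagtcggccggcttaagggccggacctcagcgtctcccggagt
TPI1: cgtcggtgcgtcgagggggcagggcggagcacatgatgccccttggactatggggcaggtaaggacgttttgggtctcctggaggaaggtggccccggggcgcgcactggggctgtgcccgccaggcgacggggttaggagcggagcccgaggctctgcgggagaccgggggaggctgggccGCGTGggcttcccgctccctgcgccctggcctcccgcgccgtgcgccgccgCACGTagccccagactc
ANGPTL4: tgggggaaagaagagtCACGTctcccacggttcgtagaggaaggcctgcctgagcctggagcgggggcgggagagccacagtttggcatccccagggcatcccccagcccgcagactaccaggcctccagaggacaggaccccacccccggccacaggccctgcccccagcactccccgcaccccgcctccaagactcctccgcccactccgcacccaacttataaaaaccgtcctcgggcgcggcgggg
The LDHA window holds 3 runs of capitals, of which both CACGTG runs read the same on either strand, and the PGK1 window holds 3 runs close together. The ENO1 and TPI1 windows hold 2 runs each, the ADM and ANGPTL4 windows 1 each and the EGLN3 window none. Among the windows shown, a gene that rose and a gene that fell can thus have the same count. LDHA and TPI1 each have another window, not shown, with 1 match for LDHA and 0 for TPI1.

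At the head of the pathway, the hexokinases trap glucose in the cell by phosphorylation. HK2 (ENSG00000159399, chr2:74833981-74893359, plus strand, hg38), the hexokinase often induced in tumours, stood at 8.02 and 8.74 FPKM at 30 Gy, against 11.4 and 13.0 FPKM at 0 Gy. It fell by 0.49 ± 0.09 on the log2 scale (SE, adjusted p = 0.0251). HK1, the more widely expressed enzyme, stood at 22.4 and 21.8 FPKM at 30 Gy, against 19.1 and 21.5 FPKM at 0 Gy, and did not pass (adjusted p = 0.329). The summed FPKM of both hexokinases was 30.4 and 30.5 at 30 Gy, against 30.5 and 34.5 at 0 Gy. HK2 made up 26.4% and 28.6% of that sum at 30 Gy and 37.4% and 37.7% at 0 Gy, so its share was lower in both 30 Gy libraries. That sum leaves out HKDC1, a further hexokinase that is not among the 39 genes. With HKDC1 the sum was 35.3 and 36.9 FPKM at 30 Gy, against 42.6 and 46.5 FPKM at 0 Gy, and HK2 made up 22.7% and 23.7% of it at 30 Gy, against 26.8% and 27.9% at 0 Gy. With 2 libraries a group the smallest two-sided exact permutation p is 0.33, so shares are given without a test.

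The next steps up to the splitting of the sugar gave no call. GPI, which converts glucose 6-phosphate to fructose 6-phosphate, averaged 35.8 ± 1.64 FPKM at 30 Gy and 40.2 ± 2.70 FPKM at 0 Gy (SD, n = 2 each). The phosphofructokinases catalyse the committed step. PFKP, the platelet-type and the highest of them in FPKM, averaged 68.7 ± 0.115 FPKM at 30 Gy and 65.2 ± 0.369 FPKM at 0 Gy. In reads PFKP had 5301 and 5295 at 30 Gy and 5507 and 5336 at 0 Gy. PFKL had 4813 and 4227 reads at 30 Gy and 5856 and 5934 at 0 Gy, so at 0 Gy it had more than PFKP. The liver-type PFKL averaged 31.8 ± 2.83 and 38.4 ± 0.999 FPKM at 30 Gy and 0 Gy, and the muscle-type PFKM 12.0 ± 0.412 and 14.1 ± 0.757 FPKM. PFKL and PFKM did not pass in limma (adjusted p = 0.0771 and 0.101) but did with voom, a limma method for counts, on the recovered reads (adjusted p = 0.00594 and 0.0314). PFKP made up 60.1% and 62.1% of the summed phosphofructokinase FPKM at 30 Gy, against 56.1% and 54.7% at 0 Gy.

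PFKFB enzymes make and break fructose 2,6-bisphosphate, the strongest activator of phosphofructokinase. PFKFB2 stood at 1.70 and 1.49 FPKM at 30 Gy, against 2.65 and 2.74 FPKM at 0 Gy, and fell by 0.51 ± 0.11 on the log2(FPKM + 1) scale (SE, adjusted p = 0.0348). On that scale the change of such a low gene is understated: voom gave -0.77 for PFKFB2. PFKFB3, whose kinase activity far exceeds its phosphatase activity, stood at 6.51 and 6.29 FPKM at 30 Gy, against 5.62 and 5.92 FPKM at 0 Gy, without overlap but short of the threshold (adjusted p = 0.264). PFKFB4 stood at 2.11 and 2.81 FPKM at 30 Gy, against 2.20 and 2.13 FPKM at 0 Gy, so its groups overlapped. The 3 enzymes summed to 10.3 and 10.6 FPKM at 30 Gy, against 10.5 and 10.8 FPKM at 0 Gy. PFKFB2 made up 16.5% and 14.1% of the sum at 30 Gy and 25.3% and 25.4% at 0 Gy.

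The aldolases, which cut fructose 1,6-bisphosphate into 2 trioses, could not be read reliably. ALDOA stood at 1.65 and 1.56 FPKM at 30 Gy, against 2.02 and 2.42 FPKM at 0 Gy, far below its pathway neighbour GAPDH. In GENCODE v29, 42.3% of the exon bases of ALDOA also belong to AC093512.2, a gene on the same strand, and 53.5% are shared in all. AC093512.2 had 28 and 22 reads at 30 Gy and 19 and 13 reads at 0 Gy. How reads in shared exons were assigned is not stated. ALDOC, the brain-type aldolase, had 5 and 11 reads at 30 Gy and 9 and 7 reads at 0 Gy and was not tested.

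The abundant enzymes of the later steps of the pathway, which recover ATP and NADH, did not move together. TPI1, which interconverts the trioses, stood at 240.1 and 240.2 FPKM at 30 Gy, against 200.6 and 201.9 FPKM at 0 Gy. It rose 1.19-fold, by 0.25 ± 0.05 on the log2 scale (SE, adjusted p = 0.0354). GAPDH, which makes NADH at the next step, stood at 1097 and 1071 FPKM at 30 Gy, against 1005 and 1007 FPKM at 0 Gy, and did not pass (adjusted p = 0.265). Its log2 change of 0.11 turned to -0.06 under quantile normalization. PGAM1, phosphoglycerate mutase, stood at 152.7 and 151.6 FPKM at 30 Gy, against 129.5 and 138.0 FPKM at 0 Gy, and did not pass either (adjusted p = 0.0939).

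PGK1 and the enolases went the other way. PGK1 (chrX:77910739-78129296, plus strand), which makes the first ATP of the pathway, stood at 138.8 and 133.7 FPKM at 30 Gy, against 174.9 and 167.0 FPKM at 0 Gy. It fell by 0.33 ± 0.06 on the log2 scale (SE, adjusted p = 0.0252). ENO1, the main enolase, stood at 610.4 and 585.8 FPKM at 30 Gy, against 762.5 and 749.0 FPKM at 0 Gy, and fell by 0.34 ± 0.06 (SE, adjusted p = 0.0242). Quantile normalization reduced this log2 change to -0.17 and ended the call on ENO1 (adjusted p = 0.0652), as did the test of every gene above 0 (0.223). ENO2, the neuronal enolase, stood at 7.16 and 7.12 FPKM at 30 Gy, against 12.0 and 11.4 FPKM at 0 Gy, a 1.64-fold lower mean (log2 change -0.64 ± 0.07 SE, adjusted p = 0.00703). TPI1 and ENO2 lie close together on chromosome 12 and moved in opposite directions. PKM, pyruvate kinase, averaged 503.4 ± 10.3 FPKM at 30 Gy and 549.3 ± 13.4 FPKM at 0 Gy and did not pass (adjusted p = 0.200; 0.0347 with voom).

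Few reads were assigned to pseudogenes named after these genes. Pseudogenes named after GAPDH (62 of them) held at most 0.189% of the reads of GAPDH in any library. The share was 0.912% for TPI1, 0.449% for PGAM1 and 0.0954% for LDHA. Reads assigned to the parent from such copies were not tested. Reads that fit several places and were dropped would not show in these counts.

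The largest change among the glycolytic genes was in LDHA, the lactate dehydrogenase subunit that favours the reduction of pyruvate to lactate. LDHA (ENSG00000134333, chr11:18394388-18408425, plus strand) stood at 211.1 and 222.2 FPKM at 30 Gy, against 407.2 and 389.3 FPKM at 0 Gy. The mean was 1.84-fold lower at 30 Gy, with a log2 change of -0.88 ± 0.06 (SE, adjusted p = 0.00337). LDHB, the subunit that prevails in oxidative tissue, stood at 17.6 and 16.0 FPKM at 30 Gy, against 16.7 and 16.2 FPKM at 0 Gy, with overlapping groups (log2 change 0.03 ± 0.07 SE, adjusted p = 0.812). The ratio of LDHA to LDHB FPKM was 12.0 and 13.9 at 30 Gy and 24.4 and 24.0 at 0 Gy. LDHA still supplied 92.3% and 93.3% of the summed FPKM at 30 Gy, against 96.1% and 96.0% at 0 Gy. The level of LDHB is less certain, since 33.4% of its exon bases are shared with AC010197.2 on the same strand.

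LDHA lies in a stretch of chromosome 11 in which nearly all expressed genes were lower at 30 Gy. Of 35 tested genes starting within 5 Mb of LDHA, 0 were higher and 31 were lower in limma, 88.6% against 9.06% of all tested genes, with a median log2 change of -0.99. Within 1 Mb the counts were 0 higher and 10 lower of 11. The nearest are GTF2H1, a subunit of the transcription and repair factor TFIIH, TSG101 of the endosomal sorting machinery, HPS5, UEVLD, SPTY2D1 and SAAL1, whose log2 changes ran from -1.26 to -0.53. TSG101 averaged 20.7 FPKM at 30 Gy and 44.2 FPKM at 0 Gy, and GTF2H1 11.6 FPKM and 29.2 FPKM. The change of LDHA was thus of the size of its neighbours' changes, and the part of the position in the result was not tested.

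**Figure D1:**
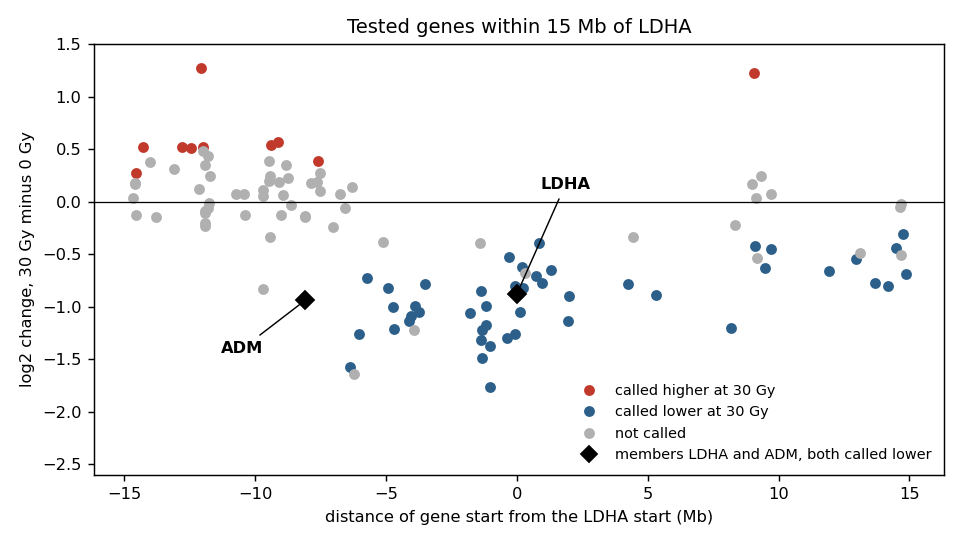
Log2 change (30 Gy minus 0 Gy) of each tested gene whose start lies within 15 Mb of the LDHA start, against the distance in Mb; red marks genes called higher, blue genes called lower and grey genes not called. Black diamonds are LDHA, in the run of low values, and ADM, at -8.09 Mb among genes near or above 0.

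Counts along chromosome 11 show how far that run extends. From 15 to 10 Mb before LDHA, 6 of 27 tested genes were higher and 0 lower (median log2 change 0.17), and from 10 to 5 Mb before it 3 of 32 were higher and 4 lower (0.06). Those 4 were ADM and, at -6.385 to -5.72 Mb, DKK3, PARVA and TEAD1, with log2 changes of -1.57, -1.26 and -0.73. From 5 to 1 Mb before LDHA, 17 of 19 were lower (-1.09). Beyond LDHA, 4 of 5 genes at 1 to 5 Mb were lower (-0.78), 5 of 12 at 5 to 10 Mb (-0.32) and 7 of 11 at 10 to 15 Mb (-0.51). Around the other called members the share called lower within 5 Mb did not exceed 21.1% (8 of 38 genes around EGLN3). Within 1 Mb that share did not exceed 37.5% (3 of 8 around HIF1A). TPI1 and ANGPTL4 rose, so for them the share called higher matters. Within 5 Mb of TPI1, 14 of 77 were higher (18.2%, against 10.8% of all tested genes) and 4 lower, with a median log2 change of 0.19. ENO2, which fell, lies in the same stretch. Within 5 Mb of ANGPTL4, 8 of 176 were higher (4.55%) and 12 lower. The part of the position in the rise of TPI1 was not tested.

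Lactate export and the mitochondrial gate showed smaller differences. SLC16A1, the transporter MCT1, stood at 24.8 and 26.9 FPKM at 30 Gy, against 27.7 and 28.8 FPKM at 0 Gy (adjusted p = 0.249). SLC16A3, the export-type transporter MCT4, stood at 47.5 and 41.1 FPKM at 30 Gy, against 47.4 and 46.7 FPKM at 0 Gy (adjusted p = 0.488). Neither passed, and the groups of SLC16A3 overlapped. PDK1, which switches off pyruvate dehydrogenase and so keeps pyruvate from the mitochondria, stood at 2.32 and 2.28 FPKM at 30 Gy, against 3.29 and 3.30 FPKM at 0 Gy. PDK1 fell by 0.38 ± 0.09 on the log2 scale (SE, adjusted p = 0.0448), the weakest call among the members.

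Summed over the 23 genes, glycolytic FPKM was 3254 and 3182 at 30 Gy, against 3543.5 and 3507 at 0 Gy. Without LDHA the sums were 3042 and 2960.1 at 30 Gy, against 3136 and 3118 at 0 Gy. The sum was lower in both 30 Gy libraries with and without LDHA. ENO1 alone stood at 610.4 and 585.8 FPKM at 30 Gy, against 762.5 and 749.0 FPKM at 0 Gy. On average that gap exceeded the one in the FPKM sum without LDHA. An FPKM sum depends on gene length as well as on reads. Of all reads, the genes without LDHA held 1.48% and 1.42% at 30 Gy, against 1.59% and 1.59% at 0 Gy. Of the 22 tested glycolytic genes, 14 had a log2 change below 0 and 8 above 0, so not every gene shared the fall. The 16 HIF pathway genes summed to 200.4 and 215.3 FPKM at 30 Gy, against 283.2 and 293.1 FPKM at 0 Gy, and HIF1A made up most of that sum. In bulk RNA, fewer cells expressing a gene and less of its RNA per cell cannot be told apart.

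**Figure D2:**
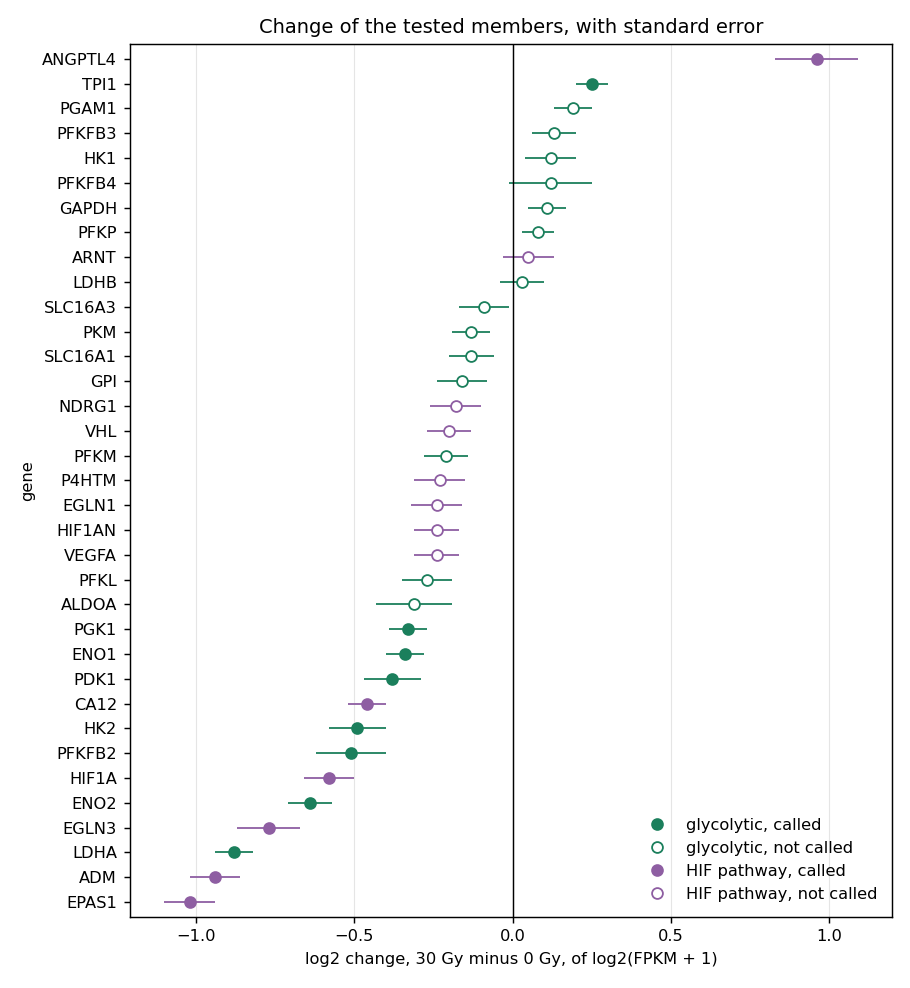
Log2 change (30 Gy minus 0 Gy, of log2(FPKM + 1)) with its standard error for the 35 tested members, sorted from highest to lowest; green marks glycolytic genes and purple HIF pathway genes, and filled points passed limma at an adjusted p under 0.05. EPAS1, ADM and LDHA are at the low end and ANGPTL4 stands alone at the high end.

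In the HIF pathway, the alpha subunit genes HIF1A and EPAS1 fell, and the beta subunit gene ARNT did not pass. HIF1A (ENSG00000100644, chr14:61695513-61748259, plus strand), the broadly expressed alpha subunit, stood at 106.0 and 118.4 FPKM at 30 Gy, against 160.7 and 174.5 FPKM at 0 Gy. It fell by 0.58 ± 0.08 on the log2 scale (SE, adjusted p = 0.0142). EPAS1 (ENSG00000116016, chr2:46293667-46386703, plus strand), which encodes HIF-2 alpha, stood at 3.71 and 3.52 FPKM at 30 Gy, against 8.58 and 8.13 FPKM at 0 Gy. Its mean was 2.31-fold lower, the largest fall among the tested members (log2 change -1.02 ± 0.08 SE, adjusted p = 0.00356). ARNT, the beta subunit HIF-1 beta, stood at 7.43 and 8.29 FPKM at 30 Gy, against 7.68 and 7.39 FPKM at 0 Gy, with overlapping groups (adjusted p = 0.681). ARNT2, a related beta subunit that is not among the 39 genes, stood at 11.9 and 11.1 FPKM at 30 Gy, against 15.5 and 15.9 FPKM at 0 Gy, and fell by 0.41 ± 0.07 (SE, adjusted p = 0.0196). HIF3A, another alpha subunit gene, had 3 and 2 reads at 30 Gy and 6 and 4 reads at 0 Gy and was not tested. In FPKM, HIF1A exceeded EPAS1 28.6-fold and 33.6-fold at 30 Gy, against 18.7-fold and 21.5-fold at 0 Gy.

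A gene antisense to HIF1A also had fewer reads at 30 Gy. HIF1A-AS1, which covers 2.27% of the exon bases of HIF1A on the opposite strand, had 11 and 12 reads at 30 Gy, against 69 and 68 reads at 0 Gy. Whether the libraries kept strand is not stated, and HIF1A itself had far more reads. Within 1 Mb of HIF1A, 3 of 8 tested genes were lower and 0 higher, and within 5 Mb 9 of 49 were lower and 1 higher.

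The oxygen-sensing hydroxylases and VHL lay lower at 30 Gy, but EGLN3 alone passed. EGLN3, the prolyl hydroxylase PHD3 and itself a HIF target, stood at 1.78 and 2.07 FPKM at 30 Gy, against 4.04 and 3.90 FPKM at 0 Gy. It fell by 0.77 ± 0.10 on the log2 scale (SE, adjusted p = 0.0116), a 2.07-fold lower mean. EGLN1, the main sensor PHD2, stood at 9.57 and 10.9 FPKM at 30 Gy, against 12.1 and 12.3 FPKM at 0 Gy, and missed the threshold (adjusted p = 0.103; 0.0230 with voom). The substrate receptor VHL averaged 15.4 ± 0.765 FPKM at 30 Gy and 17.8 ± 0.228 FPKM at 0 Gy (adjusted p = 0.0960).

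HIF1AN, the asparagine hydroxylase that blocks HIF transactivation, averaged 5.58 ± 0.171 FPKM at 30 Gy and 6.75 ± 0.250 FPKM at 0 Gy (adjusted p = 0.0839; 0.0126 with voom). P4HTM, a transmembrane prolyl hydroxylase, averaged 4.27 ± 0.0998 and 5.17 ± 0.296 FPKM at 30 Gy and 0 Gy (adjusted p = 0.110; 0.0451 with voom). For VHL, EGLN1, HIF1AN and P4HTM the values of both 30 Gy libraries were below both 0 Gy libraries. EGLN2 (PHD1) had 55 and 47 reads at 30 Gy and 88 and 85 reads at 0 Gy, and shares 30.6% of its exon bases with the readthrough gene RAB4B-EGLN2 on the same strand. EGLN3 supplied 15% and 15.5% of the summed prolyl hydroxylase FPKM at 30 Gy, against 23.8% and 23.1% at 0 Gy.

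**Figure D3:**
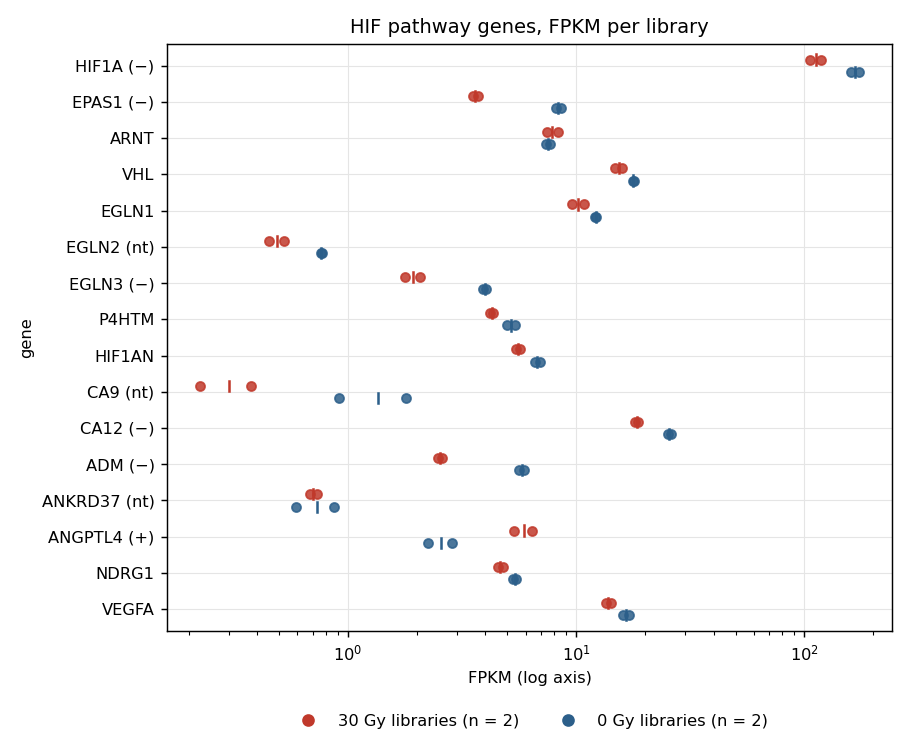
FPKM on a log axis for the 16 HIF pathway genes, ordered as subunits, oxygen sensing and targets, with 1 point per library (red above for 30 Gy, blue below for 0 Gy) and short bars at the group means. Signs mark genes called higher (+) or lower (−) at 30 Gy and "nt" genes not tested; HIF1A is the most abundant by a wide margin, and ANGPTL4 is the one target with its 30 Gy points to the right.

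The hypoxia targets did not move as one. ADM (chr11:10304680-10307397, plus strand), the vasodilator peptide adrenomedullin, stood at 2.49 and 2.59 FPKM at 30 Gy, against 5.92 and 5.63 FPKM at 0 Gy, a 2.27-fold lower mean (log2 change -0.94 ± 0.08 SE, adjusted p = 0.00465). The start of ADM is at -8.09 Mb from that of LDHA, where of 13 tested neighbours within 1 Mb 1 was higher and 0 were lower. Within 5 Mb of ADM, 7 of 58 were higher and 11 lower (19.0%). CA12, a membrane carbonic anhydrase of pH control, stood at 18.6 and 18.2 FPKM at 30 Gy, against 25.4 and 25.9 FPKM at 0 Gy, and fell by 0.46 ± 0.06 (SE, adjusted p = 0.0114). Both genes fell without overlap between the doses.

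CA9, the related carbonic anhydrase widely used as a hypoxia marker, was near the limit of detection. It had 6 and 10 reads (0.225 and 0.376 FPKM) at 30 Gy, against 52 and 26 reads (1.79 and 0.916 FPKM) at 0 Gy. Both 30 Gy libraries were lower, but the 0 Gy libraries differed widely from each other. It was under the main filter. When every gene above 0 was tested, limma gave CA9 an adjusted p of 0.201, and voom on genes with at least 10 reads in 2 libraries, an alternative chosen after the data were seen, gave a log2 change of -2.09 (adjusted p = 0.0135). Its exons overlap by 38.5% with ARHGEF39 on the opposite strand, which had 305 and 306 reads at 30 Gy and 185 and 199 reads at 0 Gy.

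ANGPTL4, a secreted inhibitor of lipoprotein lipase that also answers to nuclear receptors, rose. It stood at 6.44 and 5.34 FPKM at 30 Gy, against 2.85 and 2.25 FPKM at 0 Gy, 2.31-fold higher on average (log2 change 0.96 ± 0.13 SE, adjusted p = 0.0128). VEGFA, the main growth factor of blood vessels, stood at 13.5 and 14.2 FPKM at 30 Gy, against 17.1 and 16.1 FPKM at 0 Gy, lower in both libraries but short of the threshold (adjusted p = 0.0708; 0.00659 with voom). NDRG1, a stress-responsive protein, averaged 4.66 ± 0.179 and 5.39 ± 0.120 FPKM at 30 Gy and 0 Gy (adjusted p = 0.164). ANKRD37 had 30 and 28 reads at 30 Gy and 39 and 26 reads at 0 Gy, with overlapping values. The exons of ANKRD37 overlap by 35.2% with UFSP2 on the opposite strand. UFSP2 had 280 and 282 reads at 30 Gy and 269 and 260 reads at 0 Gy.

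**Figure D4:**
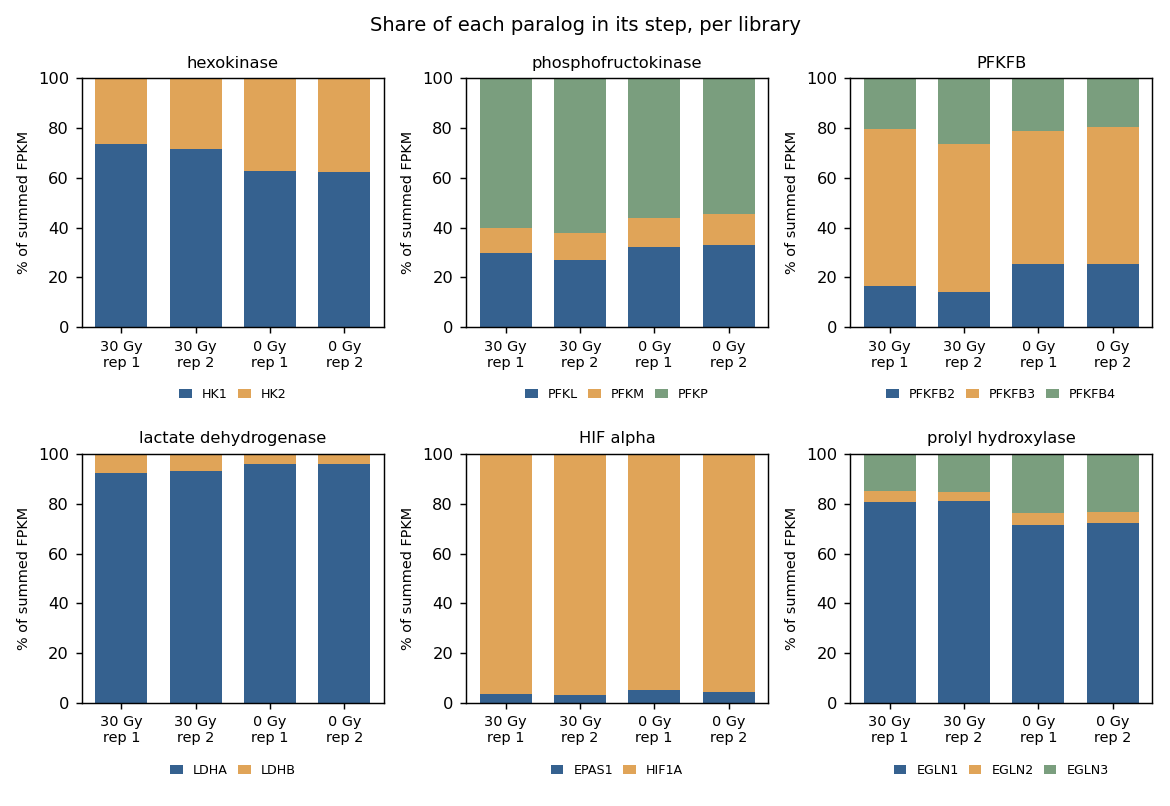
Share of each paralog in the summed FPKM of its step, in percent, with 1 stacked bar per library and the 30 Gy libraries on the left of each panel. The shares of HK2, PFKFB2 and EGLN3 are smaller in both 30 Gy libraries, HIF1A fills nearly the whole alpha-subunit panel, and LDHA nearly the whole lactate dehydrogenase panel at both doses.

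The calls on the members differed in how far they held. LDHA, ENO2, EPAS1 and ADM passed in each alternative that kept all 4 libraries and without either 30 Gy library, and CA12 passed in each alternative with all libraries but not when a 30 Gy library was left out. EGLN3, among the alternatives with all libraries, lost its call only in the fit of all genes above 0 (adjusted p = 0.0643), and kept it without either 30 Gy library. HIF1A and ANGPTL4 were lost in that same test (adjusted p = 0.0798 and 0.0789) and without the first 30 Gy library (0.0615 and 0.0602). HK2, PFKFB2, TPI1, PGK1, ENO1 and PDK1 were lost when every gene above 0 was tested and when either 30 Gy library was left out. TPI1 was also lost under quantile normalization and under eBayes without trend (adjusted p = 0.0765 in the second), PGK1 under eBayes without trend (0.0546) and ENO1 under quantile normalization. Without either 0 Gy library no gene of the whole table passed limma (3422 and 3460 genes at an unadjusted p under 0.05). With voom on the recovered reads, 1 glycolytic gene rose and 10 fell, and 1 HIF pathway gene rose and 9 fell, where 15.3% of all tested genes rose and 16.3% fell.

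Other genes of the pathways, which are not among the 39, moved both ways. Of 32 tested genes on a wider glycolysis and pyruvate list, 5 rose and 6 fell (15.6% and 18.8%, against 10.8% and 9.06% of all tested genes), with a median log2 change of 0.06. HKDC1, a hexokinase-like enzyme, stood at 4.90 and 6.32 FPKM at 30 Gy, against 12.0 and 12.0 FPKM at 0 Gy, and fell by 0.99 on the log2 scale. GBE1 of glycogen synthesis, PDHX of the pyruvate dehydrogenase complex, PDP2, SLC16A7 and PC, pyruvate carboxylase, also fell, by 0.42 to 0.71. SLC2A1, the main glucose importer GLUT1, stood at 122.0 and 117.8 FPKM at 30 Gy, against 97.3 and 94.1 FPKM at 0 Gy, and rose by 0.32 (adjusted p = 0.0240). BPGM, PDK2, PYGB and G6PC3 rose by 0.64, 0.36, 0.30 and 0.30.

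A wider hypoxia list was likewise mixed. Of 45 tested genes, 7 rose and 9 fell (15.6% and 20.0%), with a median log2 change of -0.05. DDIT4 stood at 12.0 and 12.0 FPKM at 30 Gy, against 47.5 and 51.1 FPKM at 0 Gy. DDIT4, an inhibitor of mTORC1, TFRC, the transferrin receptor, AK4, ZNF395, BNIP3, a mitophagy receptor, and KDM4C were the largest falls, at -1.95, -0.92, -0.77, -0.59, -0.52 and -0.45 on the log2 scale. The transcriptional repressors BHLHE40 and BHLHE41 rose by 1.10 and 0.63, the collagen crosslinking enzymes LOX and LOXL2 by 1.09 and 0.61, and WSB1 by 0.62. Genes commonly cited as HIF targets thus stood among both the rises and the falls.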

How the data were processed

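The authors deposited 1 table of FPKM values for 58735 genes in 4 libraries, with hg38 as the build, per the submitters' processing notes. Which aligner, counter and annotation made it is not given in the sources used here. RNA was extracted with Trizol for Illumina libraries, per the labels' protocols. All 58735 gene IDs matched GENCODE v29, used here for exon overlaps. Multiplying FPKM by gene length and scaling each library gave whole reads for 100% of values above 0 (tolerance 0.001), used for depth and for voom.

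The test was limma 3.58.1 (R 4.3.3; two-sided, lmFit and trended eBayes) on log2 of FPKM + 1 for genes that reached 1 FPKM in 2 or more libraries, all 4 libraries in 1 fit, with no covariate and Benjamini-Hochberg adjustment over 13379 genes at 0.05. Log2 changes are 30 Gy minus 0 Gy, understated for low FPKM. The fit was tested on simulated data. The members, the wider lists, the motif and the tests were chosen with earlier results of these data known. Named genes are all members, those called and a short list of others with every library's value, up to 6 changed genes each way per wider list (1 is not reported here), and the 6 tested genes nearest LDHA. Alternatives were a pseudocount of 0.1, every gene above 0, a minimum of 5 FPKM, scaling by the median or by quantile normalization, eBayes without trend, a replicate block, each library left out, voom on the recovered reads, and removal of the genes within 5 Mb of LDHA. Added after the data were seen was voom on genes with at least 10 reads in 2 libraries.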

Additional observations from a re-analysis of the deposited data

How the results depend on the processing

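No member changed sign while called in any alternative. With every gene above 0 tested, 0 glycolytic genes rose and 2 fell, and 0 HIF pathway genes rose and 3 fell. In all, 604 of 30687 genes passed, against 2654 of 13379 in the main test. Under quantile normalization and under eBayes without trend, 0 glycolytic genes rose. With voom 9 HIF pathway genes fell and 4227 genes passed in all; with voom on genes with at least 10 reads in 2 libraries, chosen after the data were seen, 10 HIF pathway genes fell and 4715 passed in all. The cause of these differences was not tested. With 1 library left out, the glycolytic genes that rose numbered 0 each time and those that fell 0 to 2, the HIF pathway genes that rose 0 to 1 and those that fell 0 to 4, and all calls 0 to 898. The lone library of a group is then assumed to vary like the other group, and fewer samples enter the fit. Replicate numbers 1 and 2 occur in both groups, but same-numbered libraries did not deviate together (r = -0.03), so the replicate block has no basis beyond the number. With the replicate block 0 glycolytic genes rose and 4 fell, and 1926 genes passed in all. The calls on TPI1, PFKFB2, ENO1 and PDK1 were the ones lost with the replicate block (adjusted p = 0.0799, 0.0665, 0.0718 and 0.0793). The other alternatives left each count within 1.5 times its main value. Changes of genes below about 1 FPKM, such as CA9, EGLN2 and ANKRD37, were limited by depth.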
